A study of Arabidopsis thaliana with 8 samples.

Results

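The change from root to callus-inducing medium was followed in Arabidopsis thaliana of wild type (Columbia-0, Col) and of the mutant hag1. The comparison took 4 of the 8 libraries of the series, chosen by genotype and stage: Col root, hag1 root, Col CIM and hag1 CIM, 1 library each. The root libraries came from roots and the CIM libraries from root explants kept for 4 days on CIM, the callus-inducing medium. The other 4 libraries, from explants moved on to shoot-inducing medium, entered the scaling, the filter on low counts and the estimate of the spread between libraries. All plants were germinated on Murashige and Skoog medium with sucrose under long days. The labels give no allele for hag1 and no age of the seedlings, and do not say how many plants went into a library. Each genotype served as a pair, and the change was fitted over both pairs of libraries.

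CIM is an auxin-rich medium. On it, pericycle cells next to the xylem divide and form callus by a route that resembles the start of a lateral root, with auxin response factors and LBD transcription factors at its head and root meristem genes of the PLT family after them. HAG1 (AT3G54610, also known as GCN5) encodes a histone acetyltransferase. Auxin level in such tissue is set by synthesis, transport and inactivation by conjugation or oxidation, and cytokinin level by synthesis through IPT and LOG enzymes and loss through CKX oxidases.

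The libraries held between 7067284 and 7527493 uniquely placed reads in the genes tested, and all gene values below are such reads summed per locus unless another unit is named. Loci for which the files list more than 1 transcript isoform (4184 of 25686) kept few unique reads, since reads shared by isoforms were left out, so their levels are too low while their changes rest on fewer reads. HAG1 had 171 reads in Col root and 204 in Col CIM, against 21 and 8 in the hag1 libraries, and its difference between the stages was not called (log2 change -0.47 ± 0.39 SE, adjusted p = 0.39). HAC2 (AT1G67220), another histone acetyltransferase gene, had 0 and 1 reads in Col root and CIM but 16 and 79 in hag1, and it rose (adjusted p = 0.0279), on reads that were almost all from hag1. Without Col root, Col CIM, hag1 root and hag1 CIM its adjusted p was 0.0609, 0.0808, 0.328 and 0.419, so the call was lost each time. No library was replicated within its genotype and stage. The p-values therefore measure the spread between these libraries once stage and genotype are removed, and the labels do not say whether they came from separate cultures.

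Genes were called in both directions. Of 18710 genes tested with edgeR's quasi-likelihood test at a Benjamini-Hochberg adjusted p of 0.05, 5562 (29.7%) were called, of which 2384 (12.7%) rose and 3178 (17.0%) fell. Which direction holds more calls depended on the scaling: scaled to total counts, 2809 rose and 2641 fell. With limma on log2(RPKM + 1) the numbers were nearly equal, 2822 and 2867, with fallen genes still ahead. At least 4-fold changes were called for 940 genes (5.02%) upward and 1992 (10.6%) downward. The genes that fell held 34.3% of the Col root reads and 29.1% of the hag1 root reads, and 8.76% and 8.39% of the reads on CIM. Those that rose went from 6.33% and 8.30% of the root reads to 24.4% and 24.2%. The genes were sorted by these same reads, so the direction of both shifts follows from the sorting. The counts of calls depended on each library: 2631, 1906, 3695 and 2813 genes were called without Col root, Col CIM, hag1 root and hag1 CIM, respectively. Where such fits are quoted for gene lists below, the 4 values follow this order of libraries left out. The counts of risen and fallen members in these lists stand beside 12.7% risen and 17.0% fallen of all genes tested.

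In each genotype alone there were 2 libraries and no test. Where either library held at least 50 reads, 2292 of 13704 (16.7%) were higher on CIM by 2-fold or more in Col, and 3172 (23.1%) were lower by as much. For hag1 the counts were 1656 of 13238 (12.5%) higher and 2503 (18.9%) lower. Of 12773 genes with enough reads in both genotypes, 81.1% differed in the same direction. Its exact 95% binomial interval, 80.4 to 81.8, treats the genes as independent, which they are not, and is too narrow. At least 2-fold differences in both genotypes were seen in 3182 genes, of which 33 in opposite directions. Across these genes, which are not independent replicates, the log2 ratios of the genotypes had a Pearson r of 0.888 and a Spearman rho of 0.809. The ratios share no library. Whether the genotypes differ in their change was not tested, since each has 1 library a stage.

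**Figure D1:**
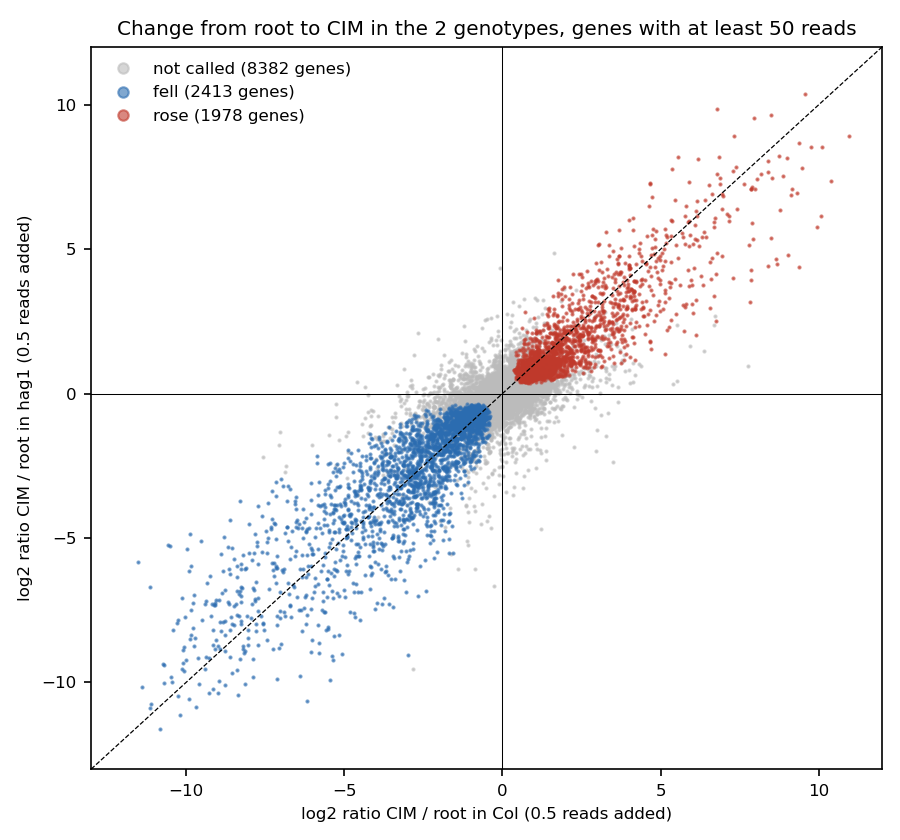
Log2 ratio of CIM to root in Col (horizontal axis) against hag1 (vertical axis), with 0.5 reads added and a dashed line of equal ratios, 1 point per gene (minimum of 50 reads in the higher library of each genotype), red where it rose, blue where it fell and grey where it was not called over both genotypes. The points lie along the diagonal, with a Pearson r of 0.888 over 12773 genes.

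Regulators of callus and lateral root founding mostly rose where they were called. Of 27 listed, all had reads and 22 were tested: 11 rose and 3 fell, with a median log2 change of 1.36 against 0.01 over all genes tested, and 7, 7, 9 and 7 rose in the fits without 1 library. PLT3, PLT5 and PLT7, factors which act in lateral root outgrowth, kept their call with any 1 library left out. PLT7 (AT5G65510, chr5:26185829-26189413) had 12 reads in Col root and 25 in hag1 root, and 855 and 347 on CIM (log2 change 4.74 ± 0.65 SE, adjusted p = 0.00586). PLT5 (AT5G57390) went from 44 and 81 reads to 331 and 313 (2.35 ± 0.32, adjusted p = 0.00562), and PLT3 (AT5G10510, a locus with 2 isoforms) from 55 and 62 to 486 and 397 (2.78 ± 0.40, adjusted p = 0.00648). In all 3, both CIM libraries lay above both root libraries. The auxin response factor ARF5 (AT1G19850), also known as MONOPTEROS, had 407 and 648 root reads and 4664 and 2482 on CIM (2.62 ± 0.35, adjusted p = 0.00543). ARF19 (AT1G19220), which acts upstream of LBD genes in lateral root founding, had 546 and 674 root reads and 1247 and 1347 on CIM (0.98 ± 0.16, adjusted p = 0.00988).

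Within the LBD family the members differed. LBD18 (AT2G45420) had 46 and 27 reads in the roots and 460 and 656 on CIM (4.00 ± 0.84 SE, adjusted p = 0.0187), and LBD33 (AT5G06080) had 5 and 10 against 103 and 110 (3.90 ± 0.67, adjusted p = 0.0107). LBD16 had 111 and 183 root reads and 398 and 319 on CIM, which did not pass (adjusted p = 0.31), and LBD29 had 66 and 23 against 24 and 15 (adjusted p = 0.18). The homeobox gene WOX11 (AT3G03660), known for founding adventitious roots from leaf explants, had 1 and 5 reads in the roots and 190 and 162 on CIM (adjusted p = 0.00369), on a locus with several isoforms. WOX7, LRP1 and PUCHI also rose: PUCHI (AT5G18560), an AP2/ERF factor of early lateral root primordia, went from 61 and 75 to 640 and 533 reads (2.96 ± 0.71, adjusted p = 0.0278). GATA23, a founder cell marker in lateral roots, stayed between 4 and 7 reads in all 4 libraries and was not tested. Without Col root the adjusted p was 0.105 for LBD18, 0.0612 for LBD33 and 0.141 for PUCHI. Without hag1 root it was 0.0978, 0.0701 and 0.0546, without hag1 CIM it was 0.0787 for LBD18 and 0.159 for PUCHI, and without Col CIM 0.0572 for PUCHI, 0.0505 for ARF19 and 0.0526 for LRP1. ARF19 was at 0.0653 without hag1 CIM. WOX7, with 1 and 2 root reads and 24 and 17 on CIM, passed in none of these fits (adjusted p 0.0812 to 0.228).

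The 3 members that fell were IAA28, IAA14 and RGF7. IAA28 (AT5G25890), an Aux/IAA repressor of lateral root founding, had 1069 and 1348 reads in the roots and 154 and 132 on CIM (-3.20 ± 0.40 SE, adjusted p = 0.0047). IAA14 (AT4G14550), the repressor also called SOLITARY-ROOT, had 205 and 154 against 65 and 90 (-1.33 ± 0.33, adjusted p = 0.0303; 0.14 without Col root, 0.191 without Col CIM, 0.0585 without hag1 CIM). RGF7, which encodes a peptide of the root meristem growth factor family, had 61 and 22 reads in the roots and 1 and 2 on CIM (adjusted p = 0.0197; 0.104 without Col root, 0.169 without Col CIM, 0.0634 without hag1 root). For IAA28 both root libraries lay well above both CIM libraries.

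**Figure D2:**
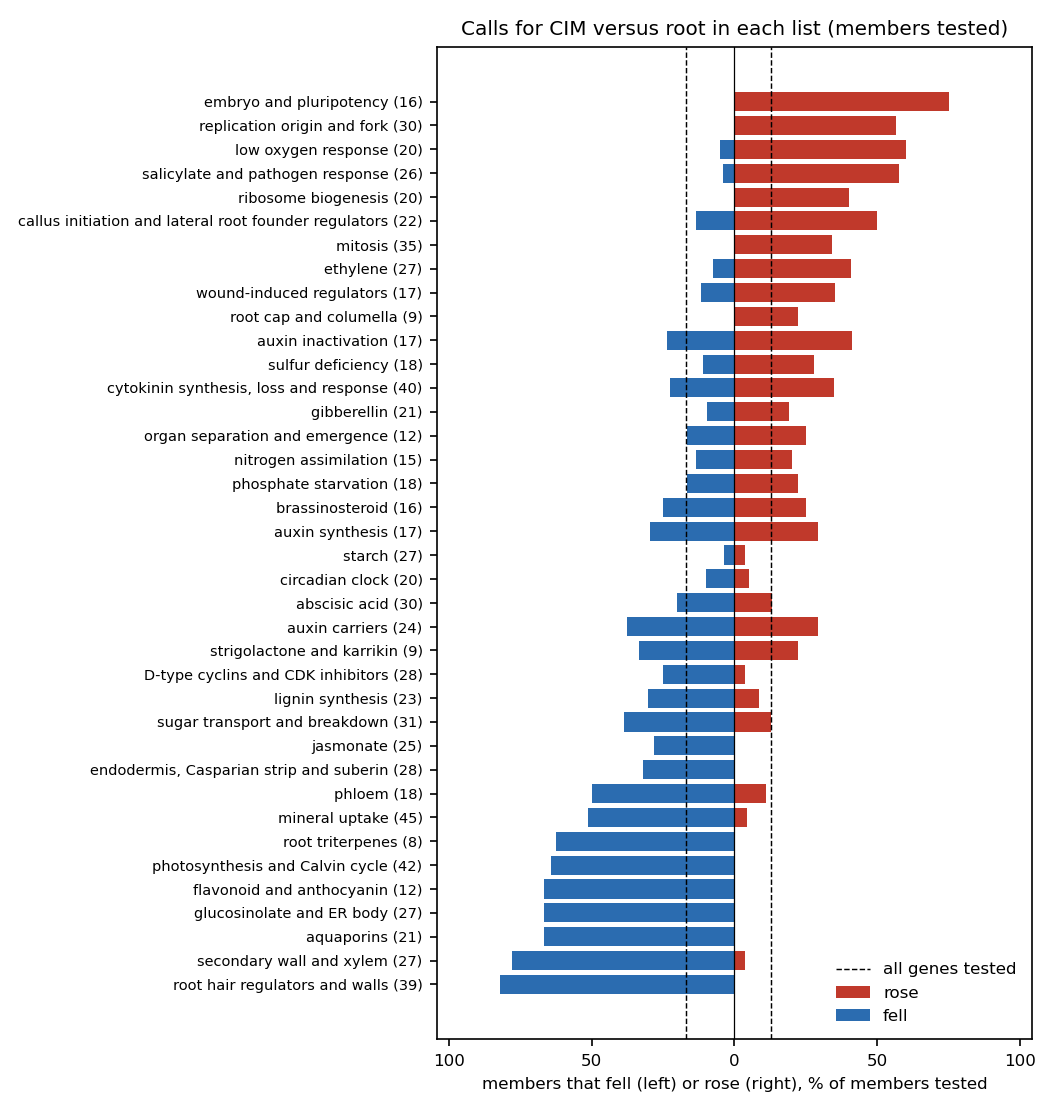
Members that fell (left, blue) and rose (right, red) in each list of genes chosen by symbol (families named by their description are not drawn), in percent of the members tested, whose number is in brackets, with dashed lines at the shares over all genes tested, 17.0% and 12.7%. Of the lists drawn, embryo and pluripotency, low oxygen, salicylate, replication and callus reach furthest on the rising side, and root hair and secondary wall on the falling side.

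Genes of the auxin inactivation list had a higher summed level on CIM, though single enzymes moved in both directions. The list also holds amidohydrolases (ILR1, IAR3 and the ILL genes), which release auxin from its conjugates. Its counts and sums therefore mix opposite functions. Summed over the 20 listed genes, the level went from 559.9 RPKM (reads scaled to transcript length and library total) in Col root and 570.2 in hag1 root to 4130.2 and 4569.6. Of 17 tested, 7 rose and 4 fell (median 0.21), and 6, 7, 6 and 7 rose and 1, 2, 2 and 3 fell in the fits without 1 library. Scaled to total counts, 2 fell. The 7 were GH3.1, GH3.2, GH3.3, GH3.5, GH3.6, DAO1 and IAMT1. The first 5 encode enzymes that join auxin to amino acids, DAO1 (AT1G14130) is an auxin oxidase and IAMT1 (AT5G55250) an auxin methyltransferase. GH3.3 (AT2G23170, chr2:9863855-9866562, minus strand) went from 131 (Col) and 117 (hag1) root reads to 23516 and 25142 on CIM, a log2 change of 7.53 ± 0.79 SE (adjusted p = 0.00305). GH3.2 (AT4G37390) had 640 and 603 root reads and 11786 and 13670 on CIM (4.28 ± 0.45, adjusted p = 0.00314). Col and hag1 lay close together at each stage in both genes.

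The promoters of GH3.2 and GH3.3 are shown because both genes rose steeply and both windows hold the letters TGTCTC, known as an auxin response element. Each runs 5′ to 3′ from 250 bases before to 50 bases after the RefSeq gene start in TAIR10.1, with TGTCTC in capitals, 144 and 116 bases before the start, respectively.
GH3.2, chr4:17579368-17579667, plus strand: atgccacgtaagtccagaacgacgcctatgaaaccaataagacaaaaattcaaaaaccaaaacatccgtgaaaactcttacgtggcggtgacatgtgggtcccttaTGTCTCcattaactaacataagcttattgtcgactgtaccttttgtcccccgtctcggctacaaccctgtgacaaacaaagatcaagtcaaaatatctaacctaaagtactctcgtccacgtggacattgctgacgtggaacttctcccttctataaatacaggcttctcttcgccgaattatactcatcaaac
GH3.3, chr2:9866513-9866812, minus strand: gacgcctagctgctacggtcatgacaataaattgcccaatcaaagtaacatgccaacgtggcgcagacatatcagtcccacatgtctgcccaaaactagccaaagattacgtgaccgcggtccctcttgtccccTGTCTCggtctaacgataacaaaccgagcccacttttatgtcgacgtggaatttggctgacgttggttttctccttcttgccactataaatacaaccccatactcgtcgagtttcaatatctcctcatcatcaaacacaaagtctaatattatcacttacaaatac
The windows of gene lists, here and below, include members that were not tested. On either strand, TGTCTC was in 7 of the 20 windows of the auxin inactivation list (35.0%) and in 13.6% of the windows of 18357 tested genes. TGTCGG, a second auxin response word, which shares no full copy with the first, was in none of the 20 and in 5.51% of all. In the callus regulator list, either word was in 12 of 27 windows (44.4%) against 18.4% of all. GH3.6, DAO1 and IAMT1 rose with neither word in the window, and UGT74E2 and IAR3 held one and were not called. A match is a match of letters, not a shown binding site.

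Not all routes of auxin loss rose. GH3.17 (AT1G28130), a GH3 enzyme of the same kind, had 413 and 472 root reads and 404 and 712 on CIM (adjusted p = 0.811), with several isoforms at the locus. DAO1 went from 361 and 304 to 1110 and 945 reads (1.52 ± 0.20 SE, adjusted p = 0.00491), while its neighbour DAO2 (AT1G14120), a close homologue, fell from 777 and 957 to 56 and 27 (-4.67 ± 0.58, adjusted p = 0.00459). UGT74D1, a glucosyltransferase that takes auxin, fell from 531 and 351 reads to 82 and 18 (adjusted p = 0.0121, but 0.0675 without Col root). GH3.1 had 121 and 36 root reads and 3671 and 4170 on CIM (adjusted p = 0.0116, but 0.0729 without either root library). The amidohydrolase genes ILR1 and ILL2, which act against conjugation, fell by less than 2-fold. ILR1 had 365 and 257 root reads against 252 and 166 on CIM, and ILL2 430 and 482 against 325 and 310. Neither passed in any fit without 1 library.

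**Figure D3:**
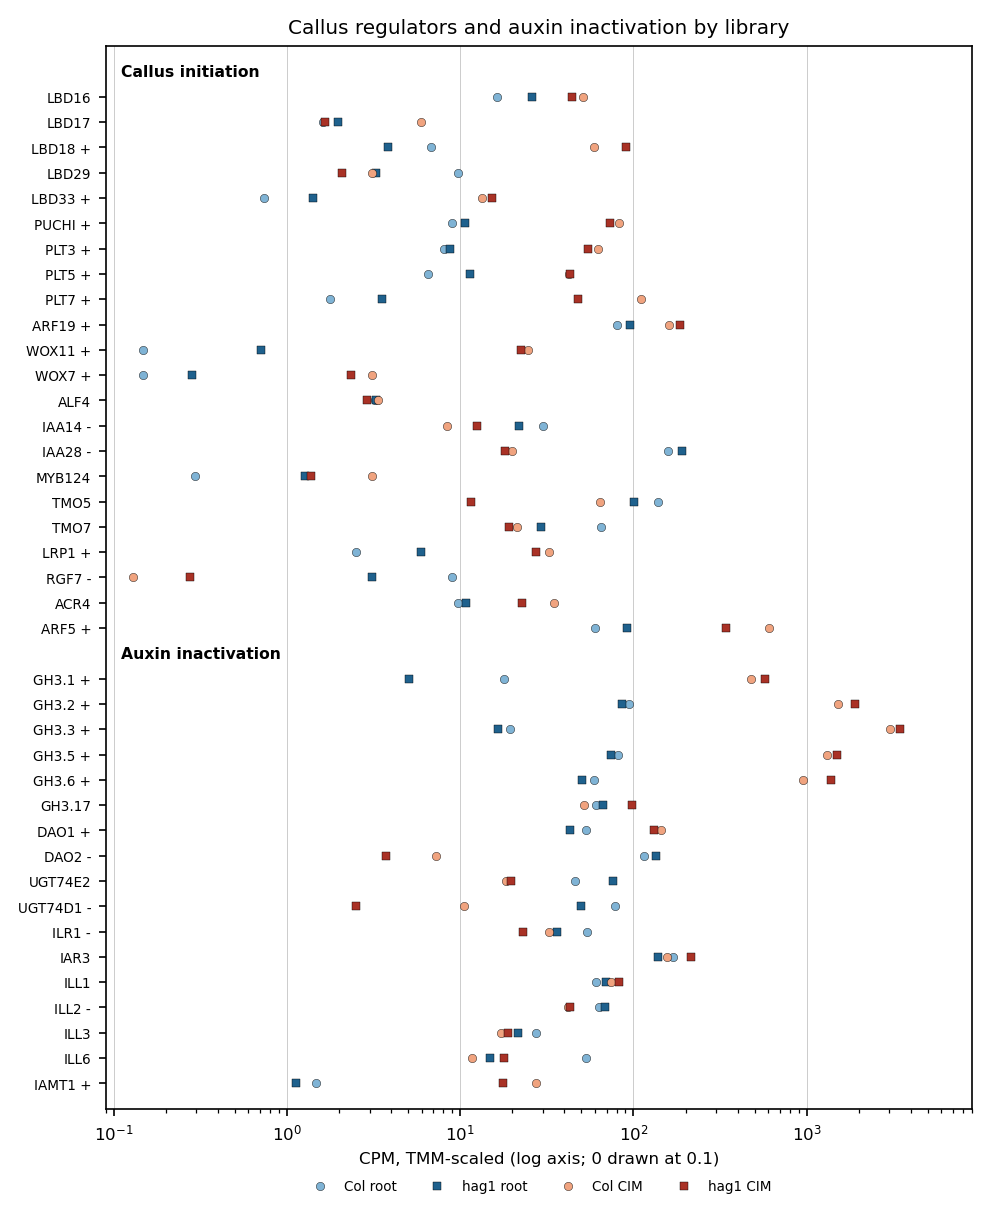
TMM-scaled CPM (reads scaled to the library size, log axis, 0 drawn at 0.1) of tested callus regulators and auxin inactivation genes, 1 point for each of Col root, hag1 root, Col CIM and hag1 CIM; + and - after a name mark genes that rose and fell. The CIM points of GH3.1, GH3.2, GH3.3, GH3.5 and GH3.6 stand to the right of the root points, those of IAA28 and DAO2 to the left.

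Auxin synthesis and transport genes moved in both directions. Of 17 synthesis genes tested, 5 rose and 5 fell (median -0.78), with 3, 2, 3 and 3 risen and 4, 2, 4 and 3 fallen in the fits without 1 library. YUC5 (AT5G43890), a flavin monooxygenase of the last synthesis step, had 156 and 187 reads in the roots and 2 in each CIM library (adjusted p = 0.00357). Its relative YUC7 (AT2G33230) had 2 and 0 reads in the roots and 72 and 79 on CIM (adjusted p = 0.00788), at least 25.7-fold higher in hag1 against a floor of 3 reads in the library. CYP79B3 (AT2G22330), which feeds both indole glucosinolates and indole-3-acetaldoxime, had 4474 and 1669 root reads and 241 and 52 on CIM (-4.75 ± 0.60 SE, adjusted p = 0.00472). The YUC genes thus include one high in each root library and another high in each CIM library.

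Of 24 auxin carriers and carrier kinases tested, 7 rose and 9 fell (median 0.15; 4, 4, 6 and 5 rose and 3, 1, 5 and 4 fell without 1 library, and 8 rose and 8 fell when scaled to total counts). ABCB1 (AT2G36910), an auxin efflux transporter, had 1801 and 2181 root reads and 10135 and 11165 on CIM (2.31 ± 0.18 SE, adjusted p = 0.00155). PID (AT2G34650), the kinase PINOID that acts on PIN efflux carriers, had 97 and 153 against 758 and 1076 (2.77 ± 0.27, adjusted p = 0.00258). LAX3 (AT1G77690), an influx carrier of cells above a lateral root primordium, had 1093 and 747 against 126 and 22 (-3.87 ± 0.70, adjusted p = 0.0123, but 0.0668 without Col root). ABCB1 and PID were higher in both CIM libraries than in both roots, and LAX3 lower.

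Cytokinin genes were called in both directions. Of 44 listed, 40 were tested: 14 rose and 9 fell (median 0.68; 12, 9, 12 and 10 rose and 7, 7, 8 and 7 fell without 1 library). On the synthesis side, the isopentenyltransferase gene IPT5 (AT5G19040) had 207 and 122 reads in the roots and 6 and 3 on CIM (-5.29 ± 0.41 SE, adjusted p = 0.00156). IPT3 (AT3G63110) had 98 and 184 against 0 and 6 (adjusted p = 0.0062), at least 37.3-fold lower in Col. The trans-zeatin hydroxylase gene CYP735A2 (AT1G67110) had 393 and 316 against 18 and 23 (-4.24 ± 0.50, adjusted p = 0.00404). All 4 root values of IPT5 and CYP735A2 lay far above their CIM values. LOG1 and LOG7, whose enzymes release active cytokinin, fell as well: LOG7 (AT5G06300) had 647 and 532 root reads and 38 and 57 on CIM (-3.74 ± 0.32, adjusted p = 0.00182), and LOG1 had 139 and 77 against 1 and 1 (adjusted p = 0.00318). CYP735A1 fell from 54 and 31 reads to 0 and 1, and IPT7 from 87 and 35 to 5 and 3 (adjusted p = 0.00975, but 0.09 without Col root and 0.0922 without Col CIM). Of the same synthesis family as LOG1, LOG3 rose (log2 change 3.97, adjusted p = 0.0198) and CKX4, of the oxidases that break cytokinin down, fell (-3.32, adjusted p = 0.0481), both on few reads.

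On the side of loss, CKX3 (AT5G56970, chr5:23044944-23048268), a cytokinin oxidase, had 13 and 31 reads in the roots and 3938 and 4331 on CIM (7.47 ± 0.34 SE, adjusted p = 0.000754). CKX6 (AT3G63440) had 35 and 56 against 568 and 321 (3.09 ± 0.42, adjusted p = 0.00562), and CKX5 (AT1G75450, several isoforms) 16 and 24 against 210 and 200 (3.23 ± 0.43, adjusted p = 0.00534). CKX1 (AT2G41510) had 14 and 20 root reads, 609 in Col CIM and 96 in hag1 CIM (adjusted p = 0.0159, but 0.0752 without Col CIM). CKX2 rose and CKX4 fell on 1 to 23 reads a library, and neither passed without Col root, Col CIM or hag1 CIM (adjusted p 0.123 to 0.178 for CKX2 and 0.0547 to 0.278 for CKX4, which also missed without hag1 root). UGT76C2 (AT5G05860), a cytokinin glucosyltransferase, went from 203 and 201 to 597 and 425 reads (2.3-fold, adjusted p = 0.00638). Of the CKX genes, CKX3 gained the most reads, to a similar number in Col and hag1.

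Among response genes, the type-A regulators ARR4, ARR7, ARR9 and ARR15 and the response factors CRF1, CRF3 and CRF5 rose. ARR7 (AT1G19050) had 193 and 280 root reads and 709 and 1198 on CIM (1.87 ± 0.18 SE, adjusted p = 0.00252), and ARR4 (AT1G10470) 816 and 971 against 2056 and 2830 (1.32 ± 0.17, adjusted p = 0.00523). CRF5 (AT2G46310) had 100 and 93 against 448 and 339 (1.91 ± 0.21, adjusted p = 0.00329). AHP1, a phosphotransfer protein between receptor and regulator, fell from 580 and 871 to 224 and 161 reads (adjusted p = 0.00913). The call was lost for ARR9 without Col CIM (0.0875), for ARR15 without hag1 root (0.0661), for AHP1 without hag1 CIM (0.0613), for CRF3 without hag1 root (0.0975) or hag1 CIM (0.094), and for CRF1 without Col root (0.0977), Col CIM (0.103) or hag1 CIM (0.08). LOG3, with 1 root read per library and 13 and 25 on CIM, passed in none of the 4 fits (0.0768 to 0.154).

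**Figure D4:**
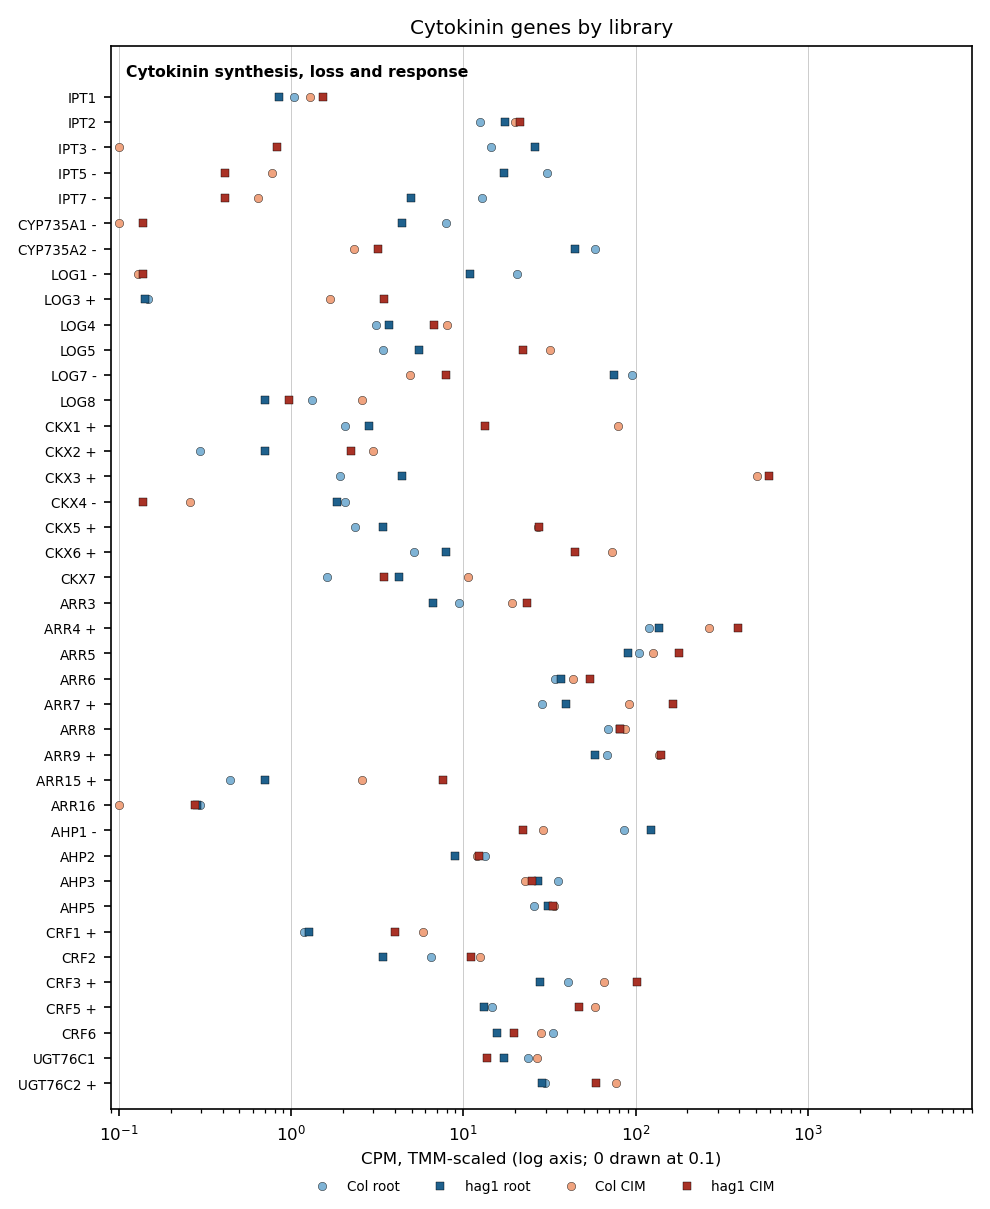
TMM-scaled CPM (log axis, 0 drawn at 0.1) of tested cytokinin genes, 1 point for each of Col root, hag1 root, Col CIM and hag1 CIM; + and - after a name mark genes that rose and fell. The CIM points of IPT3, IPT5, IPT7 and both CYP735A genes stand to the left of the root points, and those of CKX3, CKX5 and CKX6 to the right.

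Many genes of DNA replication rose and none of the list fell. Of 37 listed, 36 had reads and 30 were tested, and 17 rose (median 1.02). The call was sensitive to each library, with 9, 4, 9 and 6 risen in the fits without 1 library. MCM3 (AT5G46280, chr5:18769697-18773658), a subunit of the replicative helicase, had 221 and 297 root reads and 862 and 916 on CIM (1.68 ± 0.18 SE, adjusted p = 0.00314). RNR1 (AT2G21790), the large subunit of ribonucleotide reductase, had 802 and 865 against 2505 and 2118 (1.36 ± 0.16, adjusted p = 0.00402). MCM5 (AT2G07690) had 13 and 11 against 45 and 44 (1.76 ± 0.45, adjusted p = 0.0333; 0.0981 to 0.149 in the fits without 1 library). In these 3 genes both CIM libraries lay above both root libraries.

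E2F factors drive S-phase genes in plants, and the windows of MCM3 and MCM5 are shown because each holds 2 matches to the E2F word. The word was taken as TTT, then 2 letters that are each C or G, then CG, then C or G, which makes 8 words, on either strand, with overlapping matches counted. Matches are in capitals and begin 170 and 59 bases before the RefSeq start in MCM3 and 19 and 1 in MCM5, where the last one runs across the start.
MCM3, chr5:18773657-18773956, minus strand: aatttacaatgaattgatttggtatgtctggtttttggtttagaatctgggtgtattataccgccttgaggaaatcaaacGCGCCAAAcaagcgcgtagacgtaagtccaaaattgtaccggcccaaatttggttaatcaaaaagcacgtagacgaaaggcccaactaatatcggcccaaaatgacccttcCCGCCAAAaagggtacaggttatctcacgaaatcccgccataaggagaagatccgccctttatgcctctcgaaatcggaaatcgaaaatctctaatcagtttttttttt
MCM5, chr2:3527451-3527750, minus strand: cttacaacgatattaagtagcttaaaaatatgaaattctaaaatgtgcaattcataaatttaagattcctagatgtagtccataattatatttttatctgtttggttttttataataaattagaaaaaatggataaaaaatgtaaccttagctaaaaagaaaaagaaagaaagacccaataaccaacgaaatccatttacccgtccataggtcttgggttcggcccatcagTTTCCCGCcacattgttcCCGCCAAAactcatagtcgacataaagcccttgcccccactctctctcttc
The E2F word was in 18 of 36 windows of the replication list and in 3.81% of the windows of all tested genes. It was in 5.87% of the windows of all genes that rose and 2.38% of those that fell. PCNA1, ORC1B, POLD4, RNR2A, TSO2, TIL1, E2FC, DEL3 and ETG1 of the replication list rose without the word in the window. CDT1A, ORC1A, ORC6, FAS1, RPA1B, CDC45, DPA and DEL2 held the word and were not called. In the mitosis list it was in 1 of 41 windows (2.44%). There the words CAACGG or TAACGG, known from promoters of mitotic genes bound by MYB3R factors, were in 24 of 41 windows (58.5%), against 6 of 36 in the replication list (16.7%) and 13.7% of all.

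Of the mitotic genes a smaller number passed. Of 41 listed 35 were tested, and 12 rose and none fell (median 0.80), with 2, 1, 7 and 8 risen in the fits without 1 library. CYCA2;4 (AT1G80370), an A-type cyclin, had 182 and 127 root reads and 702 and 426 on CIM (1.73 ± 0.21 SE, adjusted p = 0.00412). HIK (AT1G18370), a kinesin of cell plate growth, had 313 and 418 against 1023 and 957 (1.34 ± 0.22, adjusted p = 0.00888, but 0.0544 without Col root and 0.0624 without Col CIM). CDKB2;1, a kinase of mitotic entry, had 374 and 441 against 676 and 506 and did not pass (adjusted p = 0.186).

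Among D-type cyclins and inhibitors of cyclin-dependent kinases most members did not pass: of 28 tested, 1 rose and 7 fell (median -0.08; 1, 0, 3 and 0 rose and 2, 2, 5 and 4 fell without 1 library, and 3 rose and 5 fell when scaled to total counts). KRP2 (AT3G50630), an inhibitor of the KRP family, had 121 and 100 root reads and 30 and 12 on CIM (-2.55 ± 0.37 SE, adjusted p = 0.0069), and CYCD1;1 (AT1G70210) had 424 and 194 against 116 and 45 (-2.10 ± 0.22, adjusted p = 0.00312). SIM, an inhibitor tied to endoreduplication, had 548 and 407 against 80 and 221 (adjusted p = 0.039, but 0.159 without Col root and 0.197 without Col CIM). CYCD3;1 had 299 and 874 against 2024 and 1451 and did not pass (adjusted p = 0.0667). Ribosome biogenesis genes gave 8 risen of 20 tested and none fallen (median 0.53), but 2, 0, 2 and 1 in the fits without 1 library and 5 with DESeq2's size factors.

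**Figure D5:**
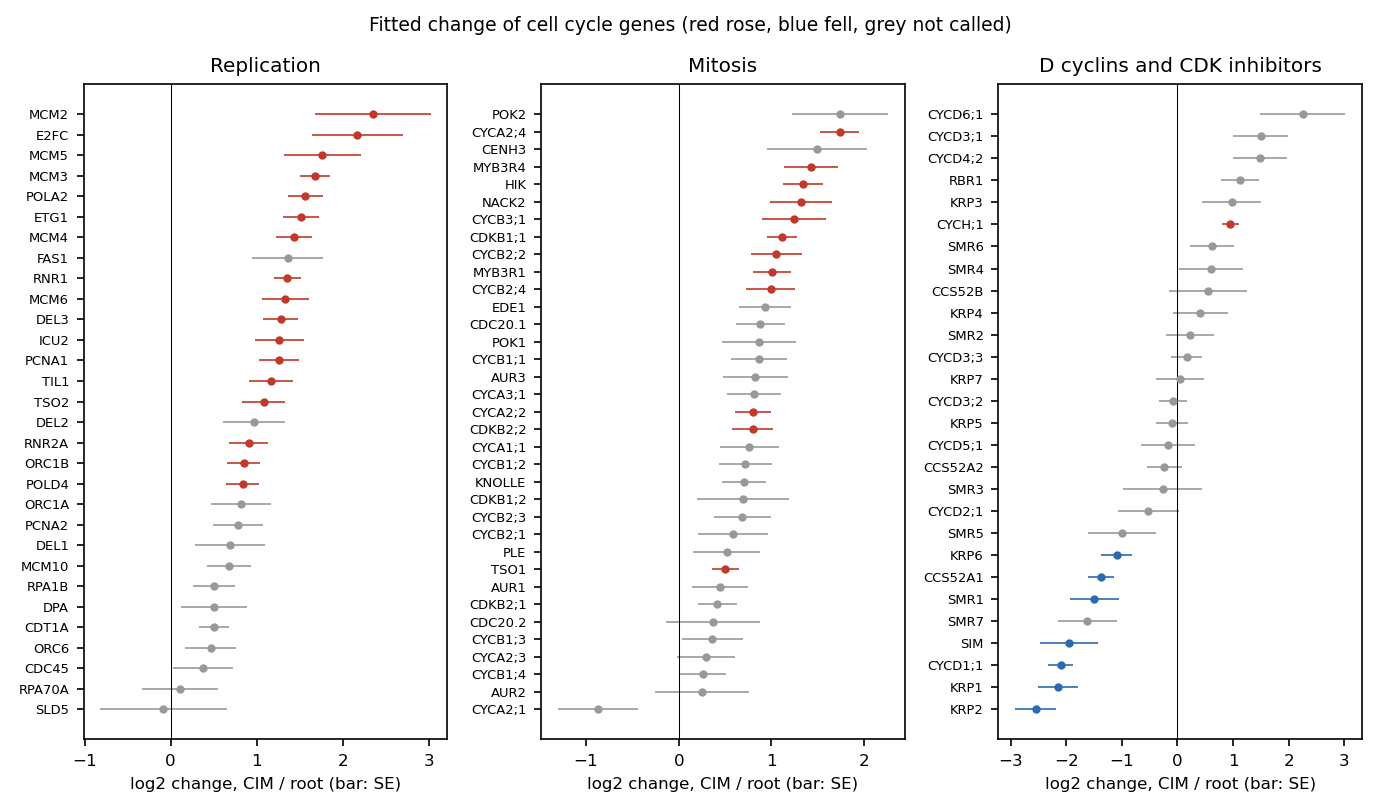
Fitted log2 change from root to CIM (points, with bars of 1 SE) of tested replication, mitosis and D cyclin or CDK inhibitor genes, 1 panel per list, red for genes that rose, blue for genes that fell and grey for those not called. The red points of replication reach from POLD4 to MCM2, while KRP2, KRP1 and CYCD1;1 lie lowest in the third panel.

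Salicylate and pathogen response genes rose. Of 29 listed 26 were tested, with 15 risen and 1 fallen (median 2.14; 11, 11, 12 and 11 rose without 1 library). SARD1 (AT1G73805, chr1:27745427-27749178), a transcription factor that turns on salicylate synthesis, had 63 and 42 root reads and 4042 and 3945 on CIM (6.14 ± 0.54 SE, adjusted p = 0.00205). Its target ICS1 (AT1G74710), the synthesis enzyme, had 10 reads in each root library and 430 and 398 on CIM (5.24 ± 0.35, adjusted p = 0.00113), on a locus with several isoforms. EDS5 (AT4G39030), the chloroplast exporter of the precursor, had 639 and 400 against 5968 and 6102 (3.43 ± 0.33, adjusted p = 0.0024). Both genotypes lay close to each other on CIM in all 3. WRKY70 (AT3G56400), a factor of the same response, rose from 272 and 410 to 5316 and 5057 reads (3.85 ± 0.31, adjusted p = 0.0017). PNP-A (AT2G18660), a small secreted peptide, had 1 and 6 root reads and 3395 and 3191 on CIM (adjusted p = 0.000754).

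The EDS5 window is shown as one that rose and holds 2 copies of TTGACT, a core of the W-box bound by WRKY factors, at 234 and 105 bases before the RefSeq start, in capitals.
EDS5, chr4:18185187-18185486, plus strand: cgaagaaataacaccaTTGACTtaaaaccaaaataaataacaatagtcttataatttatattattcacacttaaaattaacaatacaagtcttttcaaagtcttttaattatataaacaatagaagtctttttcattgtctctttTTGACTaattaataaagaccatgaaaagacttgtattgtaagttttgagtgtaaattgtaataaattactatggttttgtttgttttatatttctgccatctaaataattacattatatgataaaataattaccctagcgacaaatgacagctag
TTGACC or TTGACT, on either strand, was in 12 of 28 windows of the list (42.9%) and in 33.4% of all tested windows, and 37.1% of those of risen genes. SARD1, ICS1 and WRKY70 rose with neither word in the window, and WRKY33 and WRKY53 held 2 each and were not called.

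Not every defence gene rose. FLS2, the flagellin receptor, had 25 and 12 reads in the roots and 0 and 2 on CIM (adjusted p = 0.0196, but 0.0924 without Col root and 0.0874 without Col CIM). WRKY40 had 4995 and 1813 against 608 and 1561 (adjusted p = 0.274). PR2, a glucanase gene of the salicylate response, had 1 and 370 reads in Col root and Col CIM but 44 and 88 in hag1. Jasmonate genes gave 7 fallen of 25 tested (28.0%, against 17.0% of all genes tested) and none risen (median -1.34). This count rested on single libraries: far fewer fell without Col root, Col CIM or hag1 root, and more fell without hag1 CIM. MYC2, the jasmonate master factor, had 7334 and 4502 root reads against 1576 and 2060 on CIM and did not pass (adjusted p = 0.0597).

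Among receptor families named by the deposited descriptions, NB-ARC proteins (34.3% risen) and cysteine-rich kinases (54.2%) exceeded the 12.7% risen of all genes tested. Leucine-rich repeat kinases rose in 12.1%, near that share, and fell in 28.9%, against 17.0% of all. Of 102 tested NB-ARC resistance proteins 35 rose and 10 fell (median 0.56; 17, 19, 28 and 20 rose without 1 library). Of 24 cysteine-rich receptor-like kinases 13 rose and 3 fell (median 1.77; 6, 7, 8 and 9 rose). AT1G59780, an NB-ARC gene, had 85 and 98 root reads and 688 and 1048 on CIM (3.11 ± 0.21 SE, adjusted p = 0.00113), and RPP1 (AT3G44480) 338 and 341 against 1223 and 983 (1.58 ± 0.17, adjusted p = 0.00305). CRK2 (AT1G70520) had 355 and 455 against 1079 and 1094 (1.32 ± 0.15, adjusted p = 0.00386). Leucine-rich repeat kinases gave 18 risen and 43 fallen of 149 tested (10, 5, 24 and 10 risen, and 30, 19, 31 and 26 fallen, without 1 library). Many of these genes have near-identical copies, whose reads may be split or lost among them.

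Of 27 ethylene genes tested 11 rose, 2 fell and 14 did not pass (median 0.56; 8, 9, 9 and 7 rose without 1 library). ACS8 (AT4G37770), which makes the ethylene precursor, had 25 and 15 root reads and 3363 and 4633 on CIM (7.53 ± 0.71 SE, adjusted p = 0.00236), while its relative ACS5 had 73 and 17 against 3 and 0 (adjusted p = 0.0047). ERF115 (AT5G07310), which acts in stem cell renewal and regeneration, had 7 and 48 against 210 and 662 (3.99 ± 0.54, adjusted p = 0.00565), and ERF114 (AT5G61890) 20 and 21 against 462 and 645 (4.62 ± 0.60, adjusted p = 0.00498). Each of ACS8, ERF114 and ERF115 was higher in both CIM libraries.

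Of 20 low-oxygen genes tested 12 rose and 1 fell (median 2.04; 4, 5, 7 and 12 rose without 1 library). LBD41 (AT3G02550), one of the genes induced by low oxygen in most Arabidopsis tissues, had 212 and 215 root reads and 1218 and 935 on CIM (2.21 ± 0.17 SE, adjusted p = 0.00155). ADH1 (AT1G77120), alcohol dehydrogenase, had 154 and 575 against 4465 and 2057 (3.35 ± 0.79, adjusted p = 0.0268), but its adjusted p was 0.144 without Col root, 0.0809 without Col CIM and 0.0542 without hag1 root. PDC2, pyruvate decarboxylase 2, was the one that fell, from 825 and 827 reads to 338 and 162 (adjusted p = 0.0168, but 0.0808 without Col root and 0.0608 without hag1 root). ADH1 was higher in hag1 than in Col in the roots and lower on CIM.

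Many genes for uptake of minerals and water fell. Of 45 mineral uptake genes tested 23 fell and 2 rose (median -2.42; 16, 16, 15 and 19 fell without 1 library), and of 21 aquaporins 14 fell and none rose (median -4.00; 13, 11, 13 and 11 fell). The summed aquaporin level went from 8220.5 RPKM in Col root and 3152.6 in hag1 root to 449.7 and 345.9 on CIM. NRT1.5 (AT1G32450), which loads nitrate into the xylem, had 14135 and 3016 root reads and 15 and 14 on CIM (-8.99 ± 0.95 SE, adjusted p = 0.00314). PHO1 (AT3G23430), which loads phosphate, had 5286 and 3380 against 43 and 13 (-7.55 ± 0.60, adjusted p = 0.00162). TIP1;1 (AT2G36830), a water channel of the vacuole membrane, had 14739 and 5322 against 15 and 8 (-9.94 ± 0.63, adjusted p = 0.00112). In these genes Col root lay above hag1 root while both CIM libraries were low. The iron transporter gene IRT1 (AT4G19690) had 971 and 843 root reads and none on CIM. Against a floor of 3 reads per library this is at least 369-fold lower for Col and 288-fold for hag1, on a locus with several isoforms. The ammonium transporter gene AMT1;2 (AT1G64780) had 995 and 253 against 0 and 2 (adjusted p = 0.00287).

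A nitrate carrier went up beside them. NRT1.8 (AT4G21680), which takes nitrate out of the xylem sap, had 113 and 145 root reads and 1152 and 1625 on CIM (3.31 ± 0.21 SE, adjusted p = 0.00113). Of 15 nitrogen assimilation genes tested 3 rose and 2 fell (median 0.25). The nitrate reductase gene NIA1 (AT1G77760) had 2625 and 4153 against 11762 and 14258 (1.85 ± 0.30, adjusted p = 0.00886), and the glutamine synthetase gene GLN1;3 (AT3G17820) 2390 and 2100 against 7784 and 9216 (1.78 ± 0.28, adjusted p = 0.00889). The nitrite reductase gene NIR1 (AT2G15620) fell, from 2851 and 3493 to 1530 and 1631 reads (-1.11 ± 0.21, adjusted p = 0.0141). Calls were lost for NIA1 without Col root (0.0501), for GLN1;3 without Col CIM (0.0599), and for NIR1 without Col CIM (0.107), hag1 root (0.0581) or hag1 CIM (0.0566), and the list gave 1, 2, 2 and 2 risen and 1, 0, 0 and 0 fallen in those fits. Scaled to total counts, 1 fell.

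Of the marker lists for cell types, root hair markers went lowest: all 7 fell, from summed levels of 347 RPKM in Col root and 265 in hag1 root to 2.46 and 4.99. Xylem markers fell in 5 of 5 (282 and 215 to 56.4 and 22.0) and endodermis markers in 4 of 6 (749 and 335 to 49.3 and 26.9). Of the quiescent centre markers 2 of 4 rose (20 and 16.8 RPKM to 193 and 61.6). PLT1 went from 129 and 110 reads to 1275 and 426 (2.47 ± 0.41 SE, adjusted p = 0.00999), though its call was lost without Col CIM. PLT2 went from 93 and 87 to 535 and 256 (1.87, adjusted p = 0.0357) and kept its call in 9 of 14 alternative runs. WOX5 went from 27 and 15 to 377 and 86 without passing (adjusted p = 0.079). AGL42 had 11 and 7 against 19 and 6 and did not pass (adjusted p = 0.897). Root cap markers gave 1 of 4 risen (21.2 and 12.6 to 33.7 and 26.3). Of the pericycle and lateral root markers 1 of 4 rose (17.7 and 28.4 to 82.5 and 66.7), phloem fell in 2 of 4 (79.7 and 150 to 35.5 and 64.5), and shoot and leaf in 1 of 6 (17.0 and 14.1 to 7.04 and 6.08). Of 14 alternative runs, the calls of RHD6, MYB36, VND7, SEOR1, CALS7 and RBCS1A were kept in 10, 11, 9, 10, 9 and 10, respectively. The other fallen markers kept theirs in at least 13. Of the marker lists, APL (phloem), GATA23 and SHP1 (pericycle and lateral root) were not tested, and CLV3 (shoot) was not used here. Of the stomatal markers SPCH had no read in the 4 libraries, and MUTE and FAMA were not used here. In such whole-explant samples, fewer cells of a type and less RNA per cell cannot be told apart, and how far a changed mixture of cells enters any gene list here was not tested.

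The root cap list, which includes the markers FEZ, BRN1 and BRN2, gave 2 risen of 9 tested and none fallen (median 0.70). Its risen marker counted above was FEZ. FEZ, a factor of root cap stem cell division, had 21 and 20 root reads and 169 and 102 on CIM (adjusted p = 0.0178; 0.051 to 0.116 without 1 library), and CEL3, a cellulase of the root cap, had 121 and 345 against 2586 and 5102 (adjusted p = 0.00868, but 0.0642 without Col root). BRN1, which matures root cap cells, had 81 and 39 against 75 and 79 (adjusted p = 0.812), and BRN2 58 and 33 against 15 and 12 (adjusted p = 0.214).

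Among endodermis genes, CASP1 and PER64 of the Casparian strip fell, and ESB1, a further strip gene with 2 to 8 reads, did not pass (adjusted p = 0.63). CASP1 (AT2G36100), which lays out the Casparian strip, had 2528 and 907 root reads and 3 and 0 on CIM (adjusted p = 0.00132), and the strip peroxidase gene PER64 (AT5G42180) had 1733 and 861 against 6 and 3 (-8.44 ± 0.60 SE, adjusted p = 0.00126). The elongase genes of suberin KCS20 and KCS2 did not pass: KCS20 (AT5G43760) had 1689 and 1458 root reads and 2041 and 2728 on CIM (0.53 ± 0.33, adjusted p = 0.267), and KCS2 (AT1G04220) 1311 and 684 against 1805 and 2322 (1.12 ± 0.60, adjusted p = 0.201). SCR, the fate regulator of the layer, had 641 and 399 against 577 and 288 (adjusted p = 0.433). In the whole list 9 of 28 tested fell and none rose (median -0.47; 9, 7, 8 and 9 fell without 1 library).

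Genes of specialised root metabolism fell on CIM. Of 27 tested genes of glucosinolates and the ER body, a storage compartment for myrosinases, 18 fell and none rose (median -1.43; 14, 7, 12 and 8 fell without 1 library). PYK10 (AT3G09260), the main root ER body glucosidase and the gene with the most reads of these, had 144639 and 143147 root reads and 18782 and 23219 on CIM (-2.90 ± 0.34 SE, adjusted p = 0.00407, but 0.0511 without Col CIM). IGMT1 (AT1G21100), which methylates indole glucosinolates, had 4997 and 1493 against 10 and 9 (-8.35 ± 0.52, adjusted p = 0.00106). Of 12 flavonoid genes 8 fell and none rose (median -2.25; 7, 5, 5 and 5 fell), led by chalcone synthase TT4 (AT5G13930), with 4882 and 7881 against 16 and 10 reads (-8.97 ± 0.59, adjusted p = 0.00113). TT4 was higher in hag1 than in Col in the roots and low in both on CIM.

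Wall genes gave mixed families. Of 43 tested extensins and proline-rich proteins 26 fell and 2 rose (median -4.31; 21, 20, 23 and 21 fell without 1 library), and of 16 laccases 11 fell and none rose (median -3.37; 7, 6, 8 and 8 fell). Class III peroxidases gave 38 fallen and 11 risen of 74 (26, 20, 28 and 27 fallen and 7, 7, 11 and 9 risen). Among 21 expansins, which loosen walls, 7 fell and 4 rose (median -1.30; 7, 5, 5 and 5 fell). EXPA4 (AT2G39700) had 1280 and 3789 root reads and 15244 and 21330 on CIM (2.88 ± 0.44 SE, adjusted p = 0.00781) and EXPA15 (AT2G03090) 536 and 1222 against 3165 and 5523 (2.24 ± 0.32, adjusted p = 0.00637). EXPA11 (AT1G20190) had 465 and 211 root reads and none on CIM (Col at least 177-fold lower, hag1 at least 72.0-fold). The expansins thus include members abundant in each stage. Of those tested, 33.3% fell and 19.0% rose, against 17.0% and 12.7% of all genes tested. The xyloglucan enzymes gave 13 fallen and 3 risen of 25 (7, 7, 10 and 10 fallen and 1, 1, 2 and 1 risen).

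Of secondary wall and xylem genes 21 of 27 tested fell and 1 rose (median -2.67; 14, 12, 14 and 11 fell without 1 library). The 1 that rose was VND1 (AT2G18060), a NAC factor of vessel formation, with 22 and 15 root reads and 368 and 95 on CIM (3.29 ± 0.41 SE, adjusted p = 0.00445). LAC17 (AT5G60020), a laccase that polymerises lignin, had 1105 and 672 against 116 and 41 (-3.74 ± 0.24, adjusted p = 0.00113), and XCP2 (AT1G20850), a xylem protease, 1937 and 1363 against 368 and 147 (-2.97 ± 0.38, adjusted p = 0.00494). VND1 was highest in Col CIM, and the other pair was highest in Col root.

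Embryo and pluripotency genes gave 12 risen and none fallen of 16 tested (median 2.07; 6, 5, 10 and 6 rose without 1 library), and the list shares the PLT genes with the callus regulators. CUC2 (AT5G53950), a NAC factor that marks organ boundaries and later shoot progenitors, had 1 and 0 reads in the roots and 124 and 141 on CIM (adjusted p = 0.00206), at least 45.9-fold higher in hag1. RAP2.6L (AT5G13330), an ERF factor of shoot regeneration, had 327 and 591 against 1882 and 2115 (2.07 ± 0.25 SE, adjusted p = 0.00427). ESR1, which promotes shoot regeneration, had no root read and 67 and 89 on CIM, for Col at least 19.6-fold and for hag1 at least 29.0-fold higher (adjusted p = 0.0283, but 0.0798 without Col root, 0.0809 without Col CIM and 0.112 without hag1 root). WUS, the shoot stem cell factor, had no read in any of the 4 libraries. Of the list's 33 entries, 30 had reads and 16 were tested. Members almost without root reads, such as CUC2 and ESR1, passed the low-count filter only through later stages. They had no room to fall, so the absence of fallen members carries little weight.

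Several further genes changed widely for other hormones and metabolism. HAE (AT4G28490), the abscission receptor kinase HAESA, had 54 and 120 root reads and 2732 and 1915 on CIM (4.72 ± 0.44 SE, adjusted p = 0.00226). LBO (AT3G21420), an oxidoreductase of strigolactone synthesis, had 146 and 279 against 2748 and 4929 (4.08 ± 0.19, adjusted p = 0.000763), and GA2OX2 (AT1G30040, several isoforms), which inactivates gibberellin, 38 and 36 against 558 and 832 (17.1-fold, adjusted p = 0.00117). Each rose in both genotypes. PFK3 (AT4G26270), a phosphofructokinase of glycolysis, had 89 and 93 root reads and 1896 and 1434 on CIM (4.07 ± 0.21, adjusted p = 0.000777), and STP13 (AT5G26340), a hexose importer, 299 and 421 against 1488 and 2195 (2.23 ± 0.23, adjusted p = 0.00289). SWEET16, a vacuolar sugar carrier, fell from 567 and 273 reads to 4 and 8 (-6.10 ± 0.71, adjusted p = 0.00383). In the sulfur deficiency list 5 rose (27.8%) and 2 fell (11.1%) of 18 tested, against 12.7% and 17.0% of all genes tested. Fewer rose in each fit without 1 library. Of its members, GGCT2;1 (AT5G26220), a glutathione-degrading enzyme, had 20 and 73 root reads against 817 and 679 on CIM (4.14 ± 0.52, adjusted p = 0.0047).

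Among single genes of any list, the level of ARD3 (AT2G26400, chr2:11231800-11233295), an acireductone dioxygenase of the methionine salvage cycle, changed from 3.32 RPKM in Col root and 7.34 in hag1 root to 3541 and 2819 on CIM (22 and 46 against 22039 and 17712 reads, log2 change 9.26 ± 0.99 SE, adjusted p = 0.00318). AT3G28510, annotated as a P-loop nucleoside triphosphatase, had 59 and 237 against 16105 and 14479 reads (6.69 ± 0.66, adjusted p = 0.00267). AT1G51010, an unknown protein, had no read in either root library and 294 and 147 on CIM (Col at least 85.9-fold higher, hag1 at least 47.9-fold). On the falling side DR4 (AT1G73330, chr1:27568718-27569717), drought-repressed 4, went from 6739 and 1967 RPKM to 16.7 and 4.34 (-8.90 ± 0.46, adjusted p = 0.000777), and COR47 (AT1G20440), a dehydrin, had 18287 and 16933 against 1387 and 541 reads (-4.47 ± 0.40, adjusted p = 0.00209). Among called genes of loci with 1 isoform, the largest rise in RPKM was that of GSTF2 (AT4G02520), a glutathione transferase, which went from 803 and 1767 RPKM to 5258 and 6369 (adjusted p = 0.0396), and it missed the threshold in each fit without 1 library (0.0536 to 0.229).

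A few genes differed most between the genotypes in their change, chosen for that difference and given with no test. MLP43 had 1289 and 0 reads in Col root and CIM and 250 and 4 in hag1, JAZ7, a jasmonate repressor, 1593 and 9 against 360 and 80, and MSRB7, a methionine sulfoxide reductase, 666 and 0 against 164 and 4. In the other direction BGLU44, a glucosidase, had 206 and 197 reads in Col root and CIM and 148 and 1 in hag1, and TPS12, a terpene synthase, 90 and 14 against 360 and 0. BGLU44 was thus near level in Col and nearly absent from hag1 CIM.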

How the data were processed

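RNA from 1 library per genotype and stage was sequenced by BGI with Illumina protocols, per the labels' protocols, and reads were placed on TAIR 10, per the submitters' processing notes; aligner, counter and strand use were not given in the sources used here, so reads of a gene and an antisense partner cannot be told apart. The deposited files give, per transcript model, the count of unique reads, RPKM (unique reads scaled by the authors to model length and library total, per the file headers) and the percent of the model covered. The percent coverage in the deposited files was used only to describe loci with several isoforms, which had a median of 6.36 to 6.53 percent against 82.5 to 85.7 percent for other loci.

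Counts were summed per locus and tested with edgeR 4.0.16 (TMM scaling, filterByExpr, stage plus genotype over all 8 libraries, 3 residual degrees of freedom, R 4.3.3). On simulated counts of 18710 genes for this comparison the test recovered 3 of 100 changes of 2-fold and 56 of 100 of 4-fold, with 12 false calls. No other gene differed between root and CIM in the simulation, while 29.7% of genes were called in the data. Its adjusted threshold was therefore stricter, and these numbers do not give the recovery in the data. Ratios within a genotype used the same scaling and, where a library had no read, a floor of 3 reads per library. The floors cover counting error only, and the interval for the share of genes with the same direction treats genes as independent. Promoter windows and gene starts came from RefSeq's TAIR10.1 assembly; locus spans are those of the deposited files.

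The gene lists, the tests and the rule for named genes were chosen with earlier results of these data known. Genes were named by the largest called changes, the largest gains and losses of RPKM, up to 4 called members per list and direction and up to 3 of highest RPKM, all members of the callus, auxin inactivation, cytokinin and root cap lists, both acetyltransferase genes, and the 4 genes per direction that differed most between genotypes. DESeq2 1.42.0, limma 3.58.1 on log2(RPKM + 1) and log2(RPKM + 0.1), other scalings, filters and library sets were tried as alternatives.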

Additional observations from a re-analysis of the deposited data

How the results depend on the processing

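Beside 5562 calls, 8186 genes had an unadjusted p under 0.05 in the same edgeR fit. With genotype as the replicate block in the 4 root and CIM libraries alone, 1582 genes rose, and with stage only and no replicate block 1580 rose, against 2384. Leaving out 1 of the 4 libraries gave 1906 to 3695 calls, 753 to 1597 risen and 1153 to 2098 fallen genes. Of the list members, 228 to 318 were called, 86 to 135 rose and 142 to 183 fell in those fits, against 435, 175 and 260. The share of genes that differed in the same direction in Col and hag1 was 79.2% at a minimum of 10 reads and 82.6% at 200 reads. None of the named genes that were called (279 risen, 279 fallen) changed its direction under any alternative run. Scaling to total counts moved the median of all genes to 0.17 on the log2 scale, and turned the excess of fallen genes into one of risen genes, with 2809 risen and 2641 fallen; DESeq2's Wald test gave 2304 and 3446, and limma on log2(RPKM + 1) 2822 and 2867, and limma on log2(RPKM + 0.1) 2340 and 2425. The remaining totals of calls, over other size factors, filters and loci with 1 isoform, were 5056 to 5588. The cause of these differences was not tested. In simulated counts at this depth and number of libraries, but with far fewer changed genes than were called here, 3 of 100 changes of 2-fold were recovered.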

Other observations

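Genes that changed in the same direction often lay next to each other in chromosome order. Of 2384 genes that rose, 764 (32.0%) had an adjacent tested gene that rose, against 4397 of 18625 genes (23.6%) at large, and of 3166 that fell with a position, 1244 (39.3%) had one that fell, against 5694 (30.6%). There were 71 runs of at least 3 neighbouring genes that rose and 145 that fell, the longest of 8 and 7 genes. The run of 8 lies on chromosome 5 among genes described as a copper transport family. One of its members, AT5G52730, had no read in the roots and 268 and 94 on Col and hag1 CIM, at least 78.3-fold and 30.6-fold higher against the floor of 3 reads per library. The run of 7 fallen genes holds DR4. Tandem copies can share reads, so neighbours in such runs are not independent measurements.

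Genes of transposable elements, by the deposited descriptions, gave 21 risen (14.8%, near the 12.7% of all genes tested) and 5 fallen of 142 tested, with 959 having reads in some library. In the fits without Col root, Col CIM, hag1 root and hag1 CIM, 5, 3, 12 and 5 rose. Photosynthesis genes, already low in roots, gave 27 fallen and none risen of 42 tested, and 17, 11, 18 and 11 fallen in those fits. The photosystem II gene PSBR (AT1G79040) had 716 and 460 root reads and 56 and 43 on CIM (log2 change -3.67 ± 0.29 SE, adjusted p = 0.00159 with edgeR), and the chloroplast regulator gene GLK2 (AT5G44190) 75 and 27 against 5 and 2 (-3.96 ± 0.42, adjusted p = 0.00308).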
